A study of Mus musculus with 10 samples.

Results

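The Mas-related G protein-coupled receptors (Mrgpr) examined here were 7 genes taken by symbol, Mrgprd, Mrgpre, Mrgprf, Mrgpra3, Mrgprb4, Mrgprb5 and Mrgprx1, of 24421 rows in the count files. These files hold 20 rows whose symbol starts with Mrgpr, and the other 13 are given where they bear on the 7. The question was whether capsaicin-sensitive neurons of the mouse jugular ganglion carry the receptors that mark itch and non-peptidergic C-fibers of the skin, and how they compare with the neurons of the nodose ganglion. RNA was sequenced from 10 pools of hand-picked vagal neurons, 2 pools in each of 5 groups.

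In the Trpv1 selection, neurons came from 2 mice in which Cre recombinase from the Trpv1 gene switches on the red protein tdTomato at the ROSA26 locus. The reporter stays on in any cell that once expressed Cre, so a red cell need not express Trpv1 in the adult. Of each ganglion, pools of 30 red cells were taken (Trpv1-tdTomato-positive), and from the nodose ganglion also pools of 15 cells without red fluorescence (Trpv1-tdTomato-negative). In the capsaicin selection, neurons of wild-type C57BL/6 mice were chosen by calcium imaging. The nodose pools held 14 and 15 neurons that responded to 10 μM α,β-methylene ATP, a P2X agonist, and to 1 μM capsaicin. The jugular pools held 15 and 16 neurons that responded to capsaicin and not to α,β-methylene ATP. The selection goes together with strain, sequencing core and depth, and their parts cannot be told apart. Which mouse gave which pool is not given in the sources used here, so the spread between replicate pools may be partly technical.

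Total counts were 148452506 to 167704327 per pool in the Trpv1 selection and 17666710 to 30810863 in the capsaicin selection. Levels are normalised counts (CPM), that is counts over DESeq2 size factors of all 10 pools, times 1000000 over the geometric mean of the pool totals. A single pool need not sum to 1000000. On this scale a floor of 3 counts per pool, below which a gene is not told from 0 here, was worth 0.0116 to 0.0154 CPM in pools of the Trpv1 selection. In the shallower capsaicin selection it was worth 0.118 to 0.176 CPM. The ganglion labels were checked against markers, and each pool had the markers of its labelled ganglion. P2rx2, an ATP-gated channel subunit of placodal neurons, was 61.5 to 548 CPM over the nodose pools and at most 0.235 CPM in the jugular pools. Hoxb5, a homeobox gene of placodal neurons, was 233 to 417 CPM over the nodose pools and at most 0.196 CPM in the jugular pools. The summed level of 4 crest genes (Prdm12, Prrxl1, Tac1 and Gfra3) was 351 to 1304 CPM in the jugular pools and 0.255 to 1.25 CPM in the nodose pools. All 9 general sensory neuron markers were above the floor in every group.

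Mrgpr genes encode receptors found mainly in small-diameter sensory neurons of crest origin, and in mice the family has expanded into a cluster of near copies. In dorsal root ganglia, Mrgprd, a receptor for β-alanine, marks non-peptidergic C-fibers that end in the epidermis. Mrgpra3, a chloroquine receptor, and Mrgprx1, also called MrgprC11 and activated by the peptide BAM8-22, mark fibers whose activation evokes scratching. Mrgprb4 marks fibers that respond to stroking of hairy skin, and Mrgpre and Mrgprf are orphan receptors.

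On the GRCm38 (mm10) assembly all 7 genes lie on chromosome 7 and are protein-coding in GENCODE vM21. Mrgprd is at chr7:145314835-145324086 on the plus strand with 2 exons, close to Mrgprf at chr7:145300828-145309557 on the same strand. Mrgpre is at chr7:143778363-143784500 on the minus strand, and it alone among the 7 has exons that overlap another gene, the plus-strand Gm22064. The others lie in the expanded cluster on the minus strand: Mrgpra3 at chr7:47588950-47601372, Mrgprx1 at chr7:48020971-48027597, Mrgprb5 at chr7:48167983-48169019 and Mrgprb4 at chr7:48198070-48199288. Whether the counting used strand is not given in the sources used here, so reads of Mrgpre and of Gm22064 could not be told apart.

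Because the cluster holds near copies, the first 50 coding bases of Mrgpra3 are set against those of its closest relative by coding sequence, of Mrgpra1, a further near copy, and of Mrgprd. Sequences are from GENCODE vM21 transcripts, 5′ to 3′, starting at the start codon, and capitals mark bases that differ from Mrgpra3 at the same position.
Mrgpra3: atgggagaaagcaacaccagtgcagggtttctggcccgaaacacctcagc
Mrgpra9: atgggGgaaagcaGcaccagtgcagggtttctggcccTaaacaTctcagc
Mrgpra1: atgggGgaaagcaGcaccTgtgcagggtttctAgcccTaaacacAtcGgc
Mrgprd: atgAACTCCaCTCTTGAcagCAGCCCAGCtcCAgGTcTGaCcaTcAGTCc
In this window Mrgpra9 differed from Mrgpra3 at 4 of 50 bases and Mrgpra1 at 7, while Mrgprd differed at 34. Over the whole coding sequence the closest relative of Mrgpra3 was Mrgpra9, with 84.5% identity, and the closest relative of Mrgprd was Mrgpre, with 56.9%. Reads were 50 bases long, and 7.14% of the 50-base words of Mrgpra3 also occur in another annotated gene, among them Mrgpra4 and Mrgpra6. That share was 0% for Mrgprd and Mrgprf, 0.81% for Mrgprb5, 1.35% for Mrgpre, 1.45% for Mrgprb4 and 5.84% for Mrgprx1. Counts of Mrgprd are thus free of exact shared words, and those of Mrgpra3 and Mrgprx1 are uncertain to the extent that copies share reads.

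Mrgprd was abundant in every jugular pool and close to the floor in every nodose pool. The Trpv1-tdTomato-positive jugular pools held 13494 and 23454 Mrgprd counts, or 58.1 and 94.8 CPM. The capsaicin-selected jugular pools held 2365 and 13146 counts, or 92.8 and 548 CPM. In the nodose pools the counts were 6 and 1 (Trpv1-tdTomato-positive), 6 and 9 (capsaicin-selected) and 2 and 5 (Trpv1-tdTomato-negative). The lowest jugular pool (58.1 CPM) was thus far above the highest nodose pool (0.527 CPM), without overlap in either selection. The second capsaicin-selected jugular pool stood 5.91-fold above the first.

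**Figure D1:**
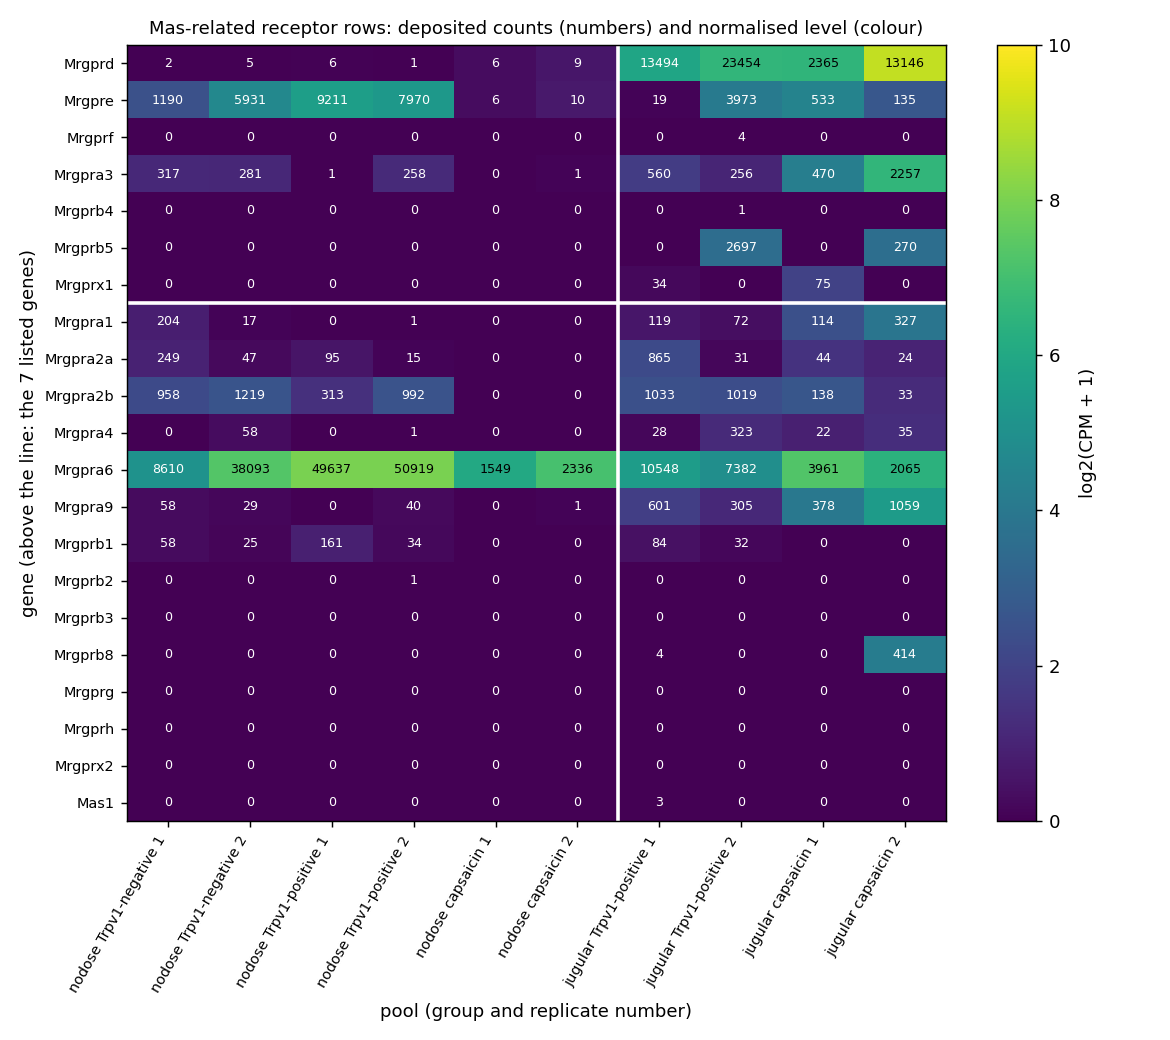
Deposited counts (numbers) and normalised level (colour, log2(CPM + 1)) of the 7 genes, of the other 13 Mrgpr rows and of Mas1 in the 10 pools; rows are genes, columns are pools, and the vertical line parts nodose from jugular pools. Mrgprd counts run from 1 to 9 in the nodose pools and from 2365 to 23454 in the jugular pools, and Mrgpra6 is counted in every pool.

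Mean Mrgprd levels were 76.4 ± 25.9 CPM (SD, n = 2) in Trpv1-tdTomato-positive jugular and 0.0179 ± 0.0184 CPM (SD, n = 2) in Trpv1-tdTomato-positive nodose neurons. The ratio of these means was 4271-fold (2073 to 10624, a 95% Poisson interval of the nodose counts, which covers counting error only). In the capsaicin selection the means were 320 ± 322 CPM (SD, n = 2) in jugular and 0.388 ± 0.196 CPM (SD, n = 2) in nodose neurons, a ratio of 825-fold (500.3 to 1474). In Trpv1-tdTomato-negative nodose neurons the mean was 0.0143 ± 0.0093 CPM (SD, n = 2). In pools, fewer cells of a type and less RNA per cell cannot be told apart, here and for each gene below. Per kilobase of exon, Mrgprd ranked between 147 and 1996 among the genes with a count in each jugular pool (8999 to 11917 genes), and at 5069 or lower down in every nodose pool.

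Each comparison was tested with edgeR's quasi-likelihood test, with Benjamini-Hochberg adjustment over all genes tested. A gene counted as called when its adjusted p did not exceed 0.1, its fold change reached 2 and both replicates of 1 or more groups had 10 CPM or more. Over both selections, with the selection as a covariate and 4 pools of each ganglion, Mrgprd was called with a log2 fold change (jugular minus nodose) of 10.97 (SE 1.32, adjusted p = 0.00396). It was 1 of 5 members that passed the filter on low counts, and the only member called, where 0.309% of the 11959 genes tested were called higher in jugular pools. This call was lost without the second capsaicin-selected jugular pool (log2 fold change 10.72, adjusted p = 0.149), and over all alternatives of this fit the adjusted p ranged from 9.07e-21 to 0.149. Mrgprd was also the only member with all 4 jugular pools above all 4 nodose pools of both selections, which held for 3.24% of the genes tested.

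Within each selection, with 2 pools against 2, the log2 fold change of Mrgprd was as large and the call was not reached. It was 12.04 (SE 1.9, adjusted p = 0.196) in the Trpv1 selection, where 0.136% of the 10990 genes tested were called higher and 0.182% lower in jugular pools, and no member was called among the 3 tested. It was 10.11 (SE 1.59, adjusted p = 0.352) in the capsaicin selection, where edgeR called 0% of 8181 genes higher in jugular pools, although 1150 genes had an unadjusted p under 0.05. DESeq2, which called 2.3% and 5.62% of genes higher in jugular pools in these selections, called Mrgprd in both (adjusted p = 1.61e-09 and 0.000599). Adjusted p over the alternatives ran from 1.61e-09 to 0.704 and from 1.09e-05 to 0.925. An exact permutation of 2 pools against 2 cannot give a p below 0.33. The jugular-nodose difference of Mrgprd in the capsaicin selection minus that in the Trpv1 selection was -1.79 (SE 1.71, adjusted p = 0.841) on the log2 scale.

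**Figure D2:**
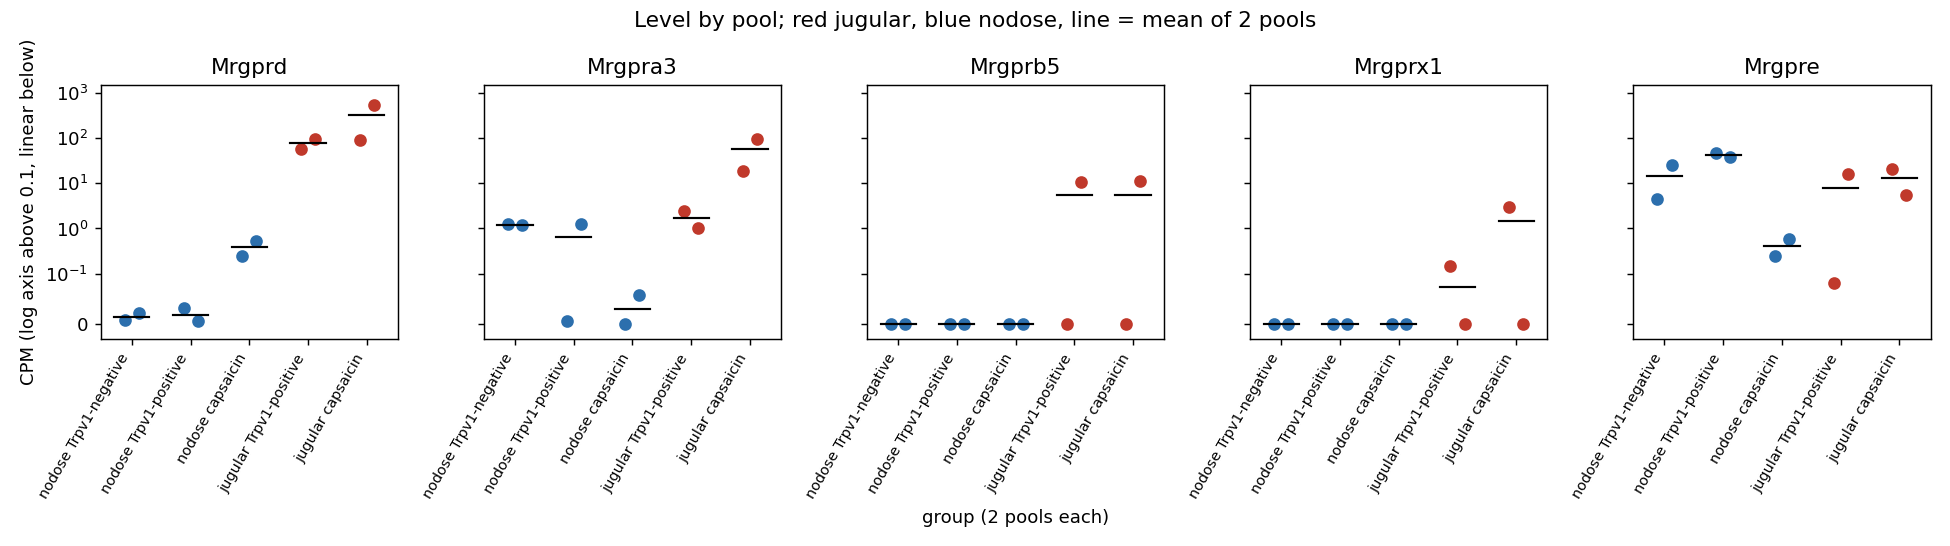
Level of the 5 members with more than a few counts (CPM, y axis, logarithmic above 0.1 and linear below) in each pool of the 5 groups; points are pools, red for jugular and blue for nodose, and lines are means of 2 pools. Mrgprd parts the ganglia in each selection, Mrgprb5 and Mrgprx1 are each counted in 1 of 2 pools of each jugular group, and Mrgpre is spread over both ganglia.

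Mrgpra3, the chloroquine receptor, was present in all 4 jugular pools but was not restricted to them. Its counts were 560 and 256 in Trpv1-tdTomato-positive jugular pools (2.41 and 1.03 CPM) and 470 and 2257 in capsaicin-selected jugular pools (18.4 and 94.1 CPM). Trpv1-tdTomato-positive nodose pools held 1 and 258 counts (0.0051 and 1.27 CPM), and Trpv1-tdTomato-negative nodose pools held 317 and 281 (1.22 and 1.17 CPM). The capsaicin-selected nodose pools held 0 and 1. The ganglia overlapped in the Trpv1 selection and did not overlap in the capsaicin selection. With 2 pools against 2 an exact permutation p cannot fall below 0.33, so this lack of overlap alone says little. Its share over all genes was not counted. Mrgpra6, which shares words with Mrgpra3, was counted 49637 and 50919 times in Trpv1-tdTomato-positive nodose pools, where Mrgpra3 had 1 and 258 counts, and the part of shared reads in the Mrgpra3 counts was not tested.

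In the capsaicin selection the mean Mrgpra3 level was 56.3 ± 53.5 CPM (SD, n = 2) in jugular neurons, 1924-fold the nodose mean, with a counting interval of 345 to 75978 since that mean rests on 1 count. The log2 fold change was 11.18 (SE 3.40, adjusted p = 0.352) in the capsaicin selection, 1.43 (SE 2.55, adjusted p = 0.945) in the Trpv1 selection and 6.13 (SE 4.42, adjusted p = 0.794) over both, none of them called by edgeR. DESeq2 called it in the capsaicin selection (adjusted p = 0.00158) and over both selections (adjusted p = 0.0246), where it called 5.52% of genes higher in jugular pools. Over the alternatives the adjusted p ranged from 0.00158 to 1 in the capsaicin selection and from 0.0246 to 0.824 over both. The difference between the selections was 9.96 (SE 4.67, adjusted p = 0.498) on the log2 scale, where edgeR called 0% of genes in either direction (1233 had an unadjusted p under 0.05) and DESeq2 called 8.04%, Mrgpra3 among them (adjusted p = 0.0335).

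Mrgpra9, a near copy of Mrgpra3, followed it across the pools. It had 601 and 305 counts in Trpv1-tdTomato-positive and 378 and 1059 in capsaicin-selected jugular pools. In the 6 nodose pools it had 0 to 58 counts. Its 50-base words that occur elsewhere (12.8%) are shared with several other genes of the cluster, and Mrgpra3 is not among them. All 4 jugular pools were above all 4 nodose pools of both selections for Mrgpra9, Mrgpra1 and Mrgpra4, 3 of the 7 other family rows tested, and edgeR called none of these 3 (adjusted p over both selections 0.482, 0.336 and 0.253). DESeq2 called Mrgpra9 in the capsaicin selection (adjusted p = 0.00366) and over both (adjusted p = 0.00211). Mrgpra1 and Mrgpra4 were low, at 0.121 to 13.6 CPM in jugular pools. Mrgpra1 also had 204 and 17 counts in the Trpv1-tdTomato-negative nodose pools.

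Mrgprb5 and Mrgprx1 were found only in jugular pools among the 10 sequenced, and in both selections in 1 pool of 2. Mrgprb5 had 2697 counts (10.9 CPM) in the second Trpv1-tdTomato-positive jugular pool and 270 counts (11.3 CPM) in the second capsaicin-selected jugular pool. It had 0 in the other 8 pools. Against a floor of 3 counts per pool, the mean of the jugular pools was at least 361-fold higher than that of the nodose pools in the Trpv1 selection and at least 37.5-fold higher in the capsaicin selection. Mrgprx1 had 34 counts (0.146 CPM) in the first Trpv1-tdTomato-positive jugular pool and 75 counts (2.94 CPM) in the first capsaicin-selected jugular pool, and 0 elsewhere. The corresponding bounds were at least 4.86-fold and at least 9.79-fold higher. The pools with Mrgprb5 were not those with Mrgprx1.

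Both genes passed the filter only in the fit over both selections, where neither was called by edgeR (adjusted p = 0.388 each). DESeq2 gave Mrgprb5 an adjusted p of 0.0493 in the capsaicin selection and no finite estimate in the Trpv1 selection or over both, and with 1 of 2 pools at 0 in each jugular group it did not meet the level a call needs. For Mrgprx1 the DESeq2 adjusted p was 0.162 over both selections. Fold changes fitted against groups at 0 depend on the prior count and are not given. Mrgprf had 4 counts in the second Trpv1-tdTomato-positive jugular pool (0.0162 CPM) and 0 in the other 9. Mrgprb4 had a single count in the same pool and 0 in the other 9. Neither passed the filter in any comparison, and at these depths levels below the floors given above could not be detected.

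Mrgpre, an orphan receptor, was counted in every pool and was not restricted to the jugular ganglion. Trpv1-tdTomato-positive nodose pools held 9211 and 7970 counts (47.4 and 39.1 CPM), and Trpv1-tdTomato-negative nodose pools held 1190 and 5931 (4.60 and 24.8 CPM). Trpv1-tdTomato-positive jugular pools held 19 and 3973 counts (0.0818 and 16.1 CPM). In the capsaicin selection the order was the other way round, with 6 and 10 counts (0.250 and 0.585 CPM) in nodose and 533 and 135 counts (20.9 and 5.63 CPM) in jugular pools.

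The Trpv1-tdTomato-positive nodose pools were thus above the Trpv1-tdTomato-positive jugular pools, and the capsaicin-selected nodose pools were below the capsaicin-selected jugular pools, without overlap in either pair. For 2 pools against 2 an exact permutation p is never below 0.33, so either ordering alone says little. The share of all genes without overlap was not counted. The Trpv1-tdTomato-negative nodose pools overlapped the Trpv1-tdTomato-positive jugular pools. The log2 fold change of Mrgpre (jugular minus nodose) was -2.41 (SE 2.28, adjusted p = 0.851) in the Trpv1 selection and 5.35 (SE 2.80, adjusted p = 0.557) in the capsaicin selection. Over both it was 1.37 (SE 4.07, adjusted p = 1). The test of the difference between selections gave 7.91 (SE 3.87, adjusted p = 0.512) with edgeR and 7.44 (adjusted p = 0.0453) with DESeq2. The adjusted p of this difference ranged from 0.0453 to 1 over its alternatives.

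**Figure D3:**
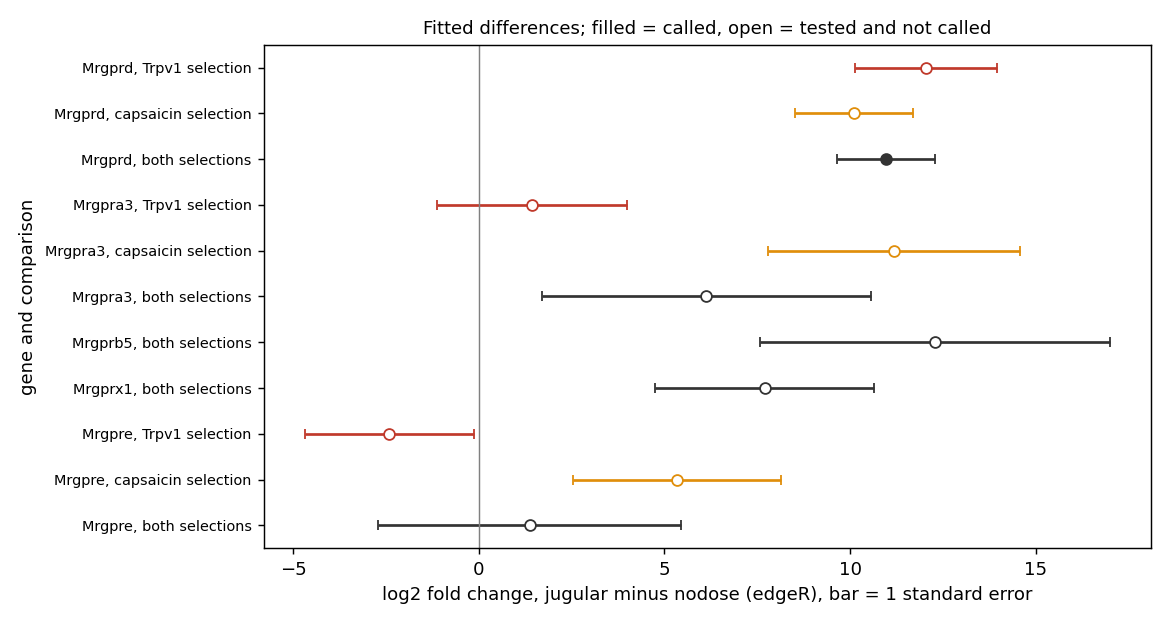
Log2 fold change, jugular minus nodose, of each tested member in the Trpv1 selection (red), the capsaicin selection (orange) and both together (black), from edgeR; bars are 1 standard error, filled points were called and open points were not. Only Mrgprd over both selections, at 10.97, is filled, and Mrgpre lies on either side of 0. For Mrgprb5 and Mrgprx1 the nodose pools are at 0, so that their points depend on the prior count.

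Among nodose neurons, edgeR tested 2 of the 7 members between Trpv1-tdTomato-positive and -negative pools and called neither. DESeq2 tested 3 and called none. Mrgprd was at 1 to 6 counts in these 4 pools and did not pass the filter. Mrgpre was 1.61 higher on the log2 scale in the positive pools (SE 1.33, adjusted p = 0.827) and Mrgpra3 was 0.87 lower (log2 fold change -0.87, SE 2.43, adjusted p = 0.989). For Mrgpre the positive pools (39.1 and 47.4 CPM) were above the negative pools (4.60 and 24.8 CPM). With 2 pools against 2 an exact permutation p cannot fall below 0.33, and the share of all genes without overlap was not counted. No member was among the 0.0527% of genes called higher in the positive pools. The capsaicin receptor Trpv1 itself was 118 to 202 CPM in the positive and 0.0334 to 0.0348 CPM in the negative nodose pools. In jugular pools it was 17.8 and 25.8 CPM in the Trpv1 selection and 223 and 70.6 CPM in the capsaicin selection.

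Trpv1-tdTomato-positive jugular pools stood above the Trpv1-tdTomato-negative nodose pools in Mrgprd as well, with a ratio of means of 5347-fold (2595 to 13299). The log2 fold change was 12.37 (SE 1.39, adjusted p = 0.0848), and Mrgprd was called where 0.139% of genes were called higher in jugular pools. The call was lost when any of the 4 pools was left out, the adjusted p then lying between 0.42 and 0.659. This comparison shares the jugular pools with that within the Trpv1 selection. Mrgpre (-0.83, SE 2.45) and Mrgpra3 (0.55, SE 1.88) were not called there.

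The other family row of high level was Mrgpra6, which GENCODE lists as protein-coding and RefSeq as a transcribed pseudogene. It was counted in every pool, at 255.5 and 249.7 CPM in Trpv1-tdTomato-positive nodose and 45.4 and 29.8 CPM in Trpv1-tdTomato-positive jugular pools. Among capsaicin-selected pools the nodose ones had 64.6 and 137 CPM and the jugular ones 155 and 86.1 CPM, and the Trpv1-tdTomato-negative nodose pools had 33.3 and 159 CPM. It made up 73.9% to 99.2% of the counts of all Mrgpr rows in the nodose pools. In the jugular pools Mrgpra6 made up 10.4% to 48.9% and Mrgprd 29.2% to 66.5%. Neither edgeR fit within a selection called Mrgpra6 (adjusted p = 0.219 and 1), nor did the fit over both (adjusted p = 0.855). Its difference between the selections was 3.44 (SE 1.16) on the log2 scale, with an adjusted p of 0.478 from edgeR and 0.0908 from DESeq2.

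The remaining rows were low. Mrgpra2a and Mrgpra2b share 87.5% and 81.2% of their 50-base words with other genes, mostly with each other, so their counts cannot be assigned to either, and none of the 7 members shares words with them. Mrgprb1 had at most 161 counts in any pool. Mrgprb8 had 414 counts in the second capsaicin-selected jugular pool and at most 4 in any other. The mast cell receptor Mrgprb2 had 1 count in all, Mas1, the gene that names the family, had 3, and Mrgprb3, Mrgprg, Mrgprh and Mrgprx2 had 0.

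Other genes known from non-peptidergic C-fibers were compared next, from a list of 14 chosen with earlier results of these data known. Over both selections 6 were called higher in jugular pools, where 0.309% of all genes tested were, and none lower. The median log2 fold change of the 14 was 8.96, where the median of all genes tested was 0.18. Among the 6 were Gna14, a Gq-class alpha subunit (11.34, SE 0.909, adjusted p = 0.000262), Plxnc1, a semaphorin receptor (11.08, SE 0.931, adjusted p = 0.000314), Grik1, a kainate receptor subunit (10.57, SE 1.07, adjusted p = 0.0012), Prkcq, protein kinase C theta, and Lpar3, a receptor for lysophosphatidic acid. Lpar3 (10.68) lost the call when any single pool was left out. Prkcq (11.39) lost it only without the second capsaicin-selected jugular pool, when 3 of the 14 were called. The count lay between 3 and 5 when any single pool was left out.

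Levels of these genes separated the ganglia as Mrgprd did. Gna14 was 120 and 152 CPM in Trpv1-tdTomato-positive jugular and 343 and 293 CPM in capsaicin-selected jugular pools, and at most 0.234 CPM in every nodose pool. Plxnc1 was 90.6 to 607 CPM in the jugular pools and at most 0.41 CPM in the 4 nodose pools of these comparisons, while the Trpv1-tdTomato-negative nodose pools had 8.59 and 4.58 CPM. Grik1 was 73.8 to 681 CPM in the jugular pools and, apart from 44.0 CPM in the second Trpv1-tdTomato-negative pool, at most 1.11 CPM in nodose pools.

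Not every gene of this list followed. All 4 jugular pools were above all 4 nodose pools of both selections for 7 of the 14. P2rx3, which encodes an ATP-gated channel subunit and marks non-peptidergic neurons of dorsal root ganglia, ranged from 77.9 to 404 CPM over the nodose pools and from 139 to 223 CPM over the jugular pools. Ret, the signalling receptor of GDNF family ligands, was 163 to 305 CPM in jugular pools and 0.0417 to 233 CPM in nodose pools. Both overlapped between the ganglia, as did Gfra2, Scn11a, Cd55, Agtr1a and Wnt2b. Within the Trpv1 selection Plxnc1, Gna14 and Grik1 were called (3 of 14, median log2 fold change 8.12 against -0.03 for all genes), where 0.136% of all genes were called higher. Within the capsaicin selection edgeR called none of the 12 tested (median 9.77 against 0.02), and 0% of all genes higher. DESeq2 called 8 there, where it called 5.62% of all genes higher.

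**Figure D4:**
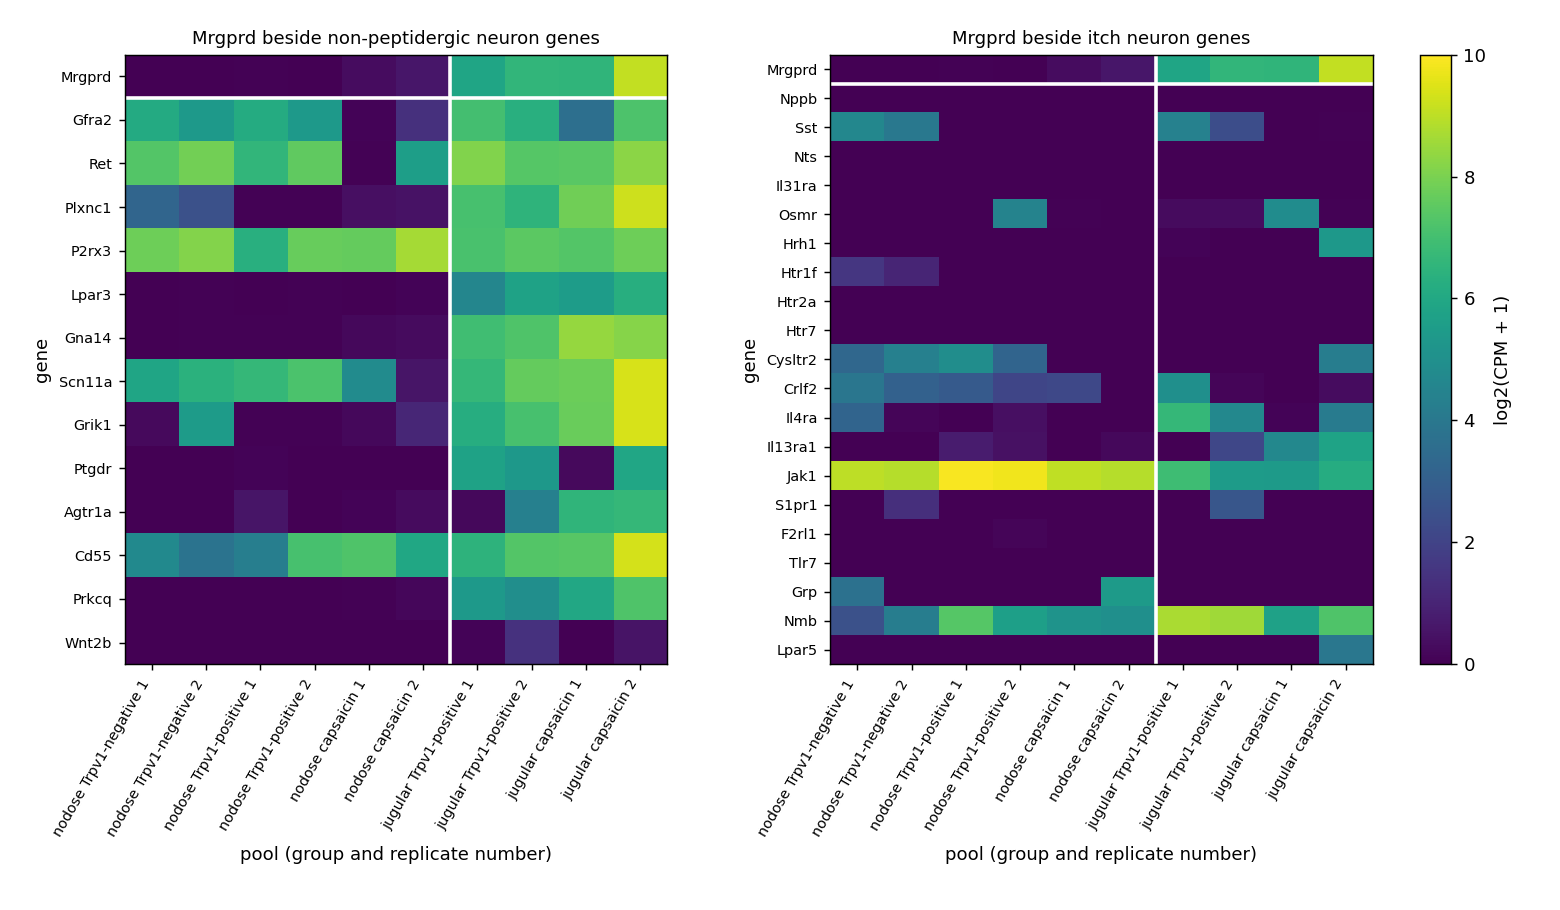
Level (colour, log2(CPM + 1)) of Mrgprd beside 13 of the non-peptidergic neuron genes (left) and 20 itch neuron genes (right) in the 10 pools; rows are genes, columns are pools, and the vertical line parts nodose from jugular pools. Plxnc1, Gna14, Grik1, Lpar3 and Prkcq are high in all 4 jugular pools, and 5 itch genes have no counts in any pool.

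Genes of itch neurons other than the Mrgpr receptors showed no such separation. Of 20 listed, 5 had 0 counts in all 10 pools: the itch transmitter Nppb, neurotensin (Nts), the IL-31 receptor subunit Il31ra, Htr2a and Tlr7. A further 2, Jak1 and neuromedin B (Nmb), were at 10 CPM or more in all 4 jugular pools, and no gene of the list had all 4 jugular pools above all 4 nodose pools. Of the 8 that passed the filter over both selections, edgeR called none higher in jugular pools (median log2 fold change 1.80 against 0.18 for all genes). DESeq2 called Il4ra, Il13ra1 and Nmb, where it called 5.52% of all genes higher. Jak1, a kinase of cytokine receptors, was called lower in jugular pools (-3.17, SE 0.458, adjusted p = 0.0142), where 0.268% of all genes were. Its levels were 42.6 to 119 CPM in jugular and 474 to 949 CPM in nodose pools.

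Several receptors of this list were uneven between replicate pools. Il4ra, the IL-4 receptor alpha chain, was 100 and 24.3 CPM in Trpv1-tdTomato-positive jugular pools, but 0.0785 and 17 CPM in capsaicin-selected jugular pools. In nodose pools it was 0.0206 and 0.314 CPM (Trpv1-tdTomato-positive), 0 and 0 CPM (capsaicin-selected) and 8.35 and 0.1 CPM (Trpv1-tdTomato-negative). Over both selections edgeR did not call Il4ra (9.59, SE 2.71, adjusted p = 0.28), while DESeq2 called it there and in the Trpv1 selection (log2 fold change 8.49, adjusted p = 0.000201). In the Trpv1 selection DESeq2 also called the leukotriene receptor Cysltr2 lower in jugular pools (-12.13, adjusted p = 8.44e-07), where it called 204 of 13281 genes lower. EdgeR did not call Cysltr2 there (adjusted p = 0.321). It was 0.0086 and 0 CPM in these jugular and 29.2 and 8.31 CPM in these nodose pools, but 0 and 17.8 CPM in capsaicin-selected jugular pools. The histamine H1 receptor Hrh1 reached 39.8 CPM in the second capsaicin-selected jugular pool and was at most 0.056 CPM in every other pool. Somatostatin (Sst), which marks a class of itch neurons with Nppb, was 20.1 and 4.15 CPM in Trpv1-tdTomato-positive jugular pools and 23.9 and 15.3 CPM in Trpv1-tdTomato-negative nodose pools, but 0.0154 and 0.0049 CPM in Trpv1-tdTomato-positive nodose pools. Its log2 fold change between the Trpv1-tdTomato-positive ganglia was 10.15 (SE 3.04, edgeR adjusted p = 0.321, DESeq2 adjusted p = 1.43e-06), and it did not meet the level a call needs. It was at most 0.0417 CPM in the capsaicin-selected pools.

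Of 20 genes that act downstream of Mrgpr receptors, 17 passed the filter over both selections. In that fit 2 were called higher in jugular pools, where 0.309% of all genes were. Among them was Gna14, which also stands in the non-peptidergic list. None of those not called had all 4 jugular pools above all 4 nodose pools. Gnaq, which encodes the alpha subunit of Gq, was 37.4 and 79.9 CPM in Trpv1-tdTomato-positive jugular and 110 and 35.5 CPM in Trpv1-tdTomato-positive nodose pools, and 521 and 577 CPM in capsaicin-selected jugular and 403 and 703 CPM in capsaicin-selected nodose pools. The median of the list was -0.46 on the log2 scale, where that of all genes was 0.18. Plcb2 and the chloride channel gene Ano1 had 0 counts in all 10 pools.

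Of 15 transcription factors and receptors that govern Mrgpr neurons, Prdm12, a regulator of nociceptor development, was called higher in jugular pools over both selections (10.28, SE 1.66, adjusted p = 0.0262), where 0.309% of all genes were. It was 138 and 148 CPM in Trpv1-tdTomato-positive and 22.3 and 32.6 CPM in capsaicin-selected jugular pools, and at most 0.19 CPM in nodose pools. Runx1, the runt-domain factor needed for Mrgpr expression in dorsal root ganglia, was 34.2 to 124 CPM in jugular and 5.05 to 79.3 CPM in nodose pools. In the Trpv1 selection both Runx1 values of the jugular pools (48.2 and 55.9 CPM) were above all 4 nodose pools (5.05 to 20.6 CPM), and in the capsaicin selection the ganglia overlapped. It was not called over both selections (1.34, SE 1.05, adjusted p = 0.831), and against Trpv1-tdTomato-negative nodose neurons DESeq2 called it (3.01, adjusted p = 0.0114) and edgeR did not (adjusted p = 0.331). The letters TGTGGT and TGCGGT, the core that Runx factors bind, were sought on both strands in the RefSeq promoter windows (GRCm38.p6, 250 bases before to 50 after the start) of Mrgprd, Mrgpre, Mrgprx1, Mrgprb4 and Mrgprb5. None of these 5 windows held either, and 22.4% of all 32851 windows held at least 1 of them.

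Several genes of the peptidergic list were high in the jugular pools as well. Tac1, the substance P precursor, was 860 and 670 CPM in Trpv1-tdTomato-positive and 1080 and 249 CPM in capsaicin-selected jugular pools. It was called over both selections (10.45, SE 0.806, adjusted p = 0.000262), where 0.309% of all genes were called higher. Of the 8 peptidergic genes it was the only 1 called there. Within the Trpv1 selection Tac1, Calca and Calcb were called, where 0.136% of all genes were called higher. Calca and Calcb encode CGRP peptides. Calca, Calcb and the artemin co-receptor Gfra3 also had all 4 jugular pools above all 4 nodose pools. The rest of the list did not follow. Adcyap1, which encodes PACAP, was 18.9 to 103 CPM in jugular and 60.5 to 876 CPM in nodose pools, and DESeq2 called it lower in jugular pools over both selections (-2.60, adjusted p = 0.0451), which edgeR did not (adjusted p = 0.299). Galanin (Gal) overlapped between the ganglia, and Kit, the stem cell factor receptor, was 13.6 and 47.7 CPM in Trpv1-tdTomato-positive jugular pools and had 0 counts in the capsaicin-selected ones. The counts come from pools of 14 to 30 cells, so whether the same cells held Mrgprd and Tac1 cannot be told.

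Among 7503 genes at 10 CPM or more in both replicates of a group, those with a pattern most like Mrgprd over the 10 pools (Pearson's r of log2(CPM + 1)) were Prkcq (r = 0.994), Lpar3 (0.990), Tmem45b (0.990), Cyp2j12 (0.984) and Gm11549 (0.983). The genes share these 10 libraries and their depth, and for Mrgprd the pools lie in a jugular and a nodose cluster, so that r describes mainly the gap between them. Tmem45b, a membrane protein gene, was 72.7 and 111 CPM in Trpv1-tdTomato-positive and 227 and 549 CPM in capsaicin-selected jugular pools, and at most 1.43 CPM in nodose pools. For Mrgpra3 the most alike were Mrgpra9 (0.974), Rgs5 (0.958), Setdb2 (0.956), Meis1 (0.946) and Gpm6a (0.944). Rgs5, a regulator of G protein signalling, was 10.2 and 31.8 CPM in the capsaicin-selected jugular pools and had 0 counts in the other 8. For Mrgpre they were Mospd3 (0.946), Slc4a8 (0.942), Magohb (0.905), Trim27 (0.903) and Dst (0.90). Slc4a8, a bicarbonate transporter gene, was 0.0258 CPM in the first Trpv1-tdTomato-positive jugular pool and 11.8 CPM in the second, as uneven as Mrgpre there.

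Markers of other cells in these pools were as follows. The summed level of 10 markers of satellite glia and Schwann cells ranged from 2708 to 3745 CPM over pools of the Trpv1 selection and was lower, 487 to 1067 CPM, over capsaicin-selected pools, and edgeR called none of them between the ganglia, while DESeq2 called Cnp higher in capsaicin-selected jugular pools. The 8 fibroblast and smooth muscle markers summed to 15.3 to 239 CPM in jugular and 0 to 38.4 CPM in nodose pools. Dcn made up nearly all of the highest value, in the first capsaicin-selected jugular pool (239 CPM), while Mrgprd was highest in the second, where the sum was 41.8 CPM. In that second pool Col1a2 gave 24.6 CPM and Dcn 17 CPM of the sum. Of the 8 markers, Col1a1, Lum, Acta2 and Myh11 were at 0 in both capsaicin-selected jugular pools. The other 4, Dcn and Col1a2 among them, reached the floor in at least 1 of these pools. The part of this signal in the Mrgpr levels was not tested. Of 7 mast cell markers, 6 had 0 counts in all 10 pools. Of 7 macrophage markers, 5 had 0 counts throughout, and all 5 endothelial markers were at 0 in the jugular pools.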

How the data were processed

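The authors primed RNA of each pool with oligo(dT), amplified it with the SMARTer Ultra Low Input v3 kit, and sequenced paired ends of 50 bases. Per the submitters' processing notes they used CASAVA 1.8.2, Bowtie2 2.1.0.0, TopHat2 2.0.9 and HTSeq on mm10. The deposited values are raw counts per gene symbol; HTSeq's version, annotation and strand setting are not given in the sources used here. Groups and replicate numbers came from the sample titles, and all 10 pools were used. The members and gene lists were chosen with earlier results of these data known.

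Counts were tested with edgeR 4.0.16 in R 4.3.3 (TMM, filterByExpr, estimateDisp, glmQLFit, glmQLFTest) on the pools compared, with DESeq2 1.42.0 as an alternative. The SE is the log2 fold change over the square root of F. Scripts were tested on simulated counts. Lengths and positions came from GENCODE vM21 (GRCm38), and Python 3.11.15 made tables and figures. The genes named are the 7 members, all other Mrgpr rows and Mas1, from each list the called genes or else up to 4 of the highest level, and the 5 genes most like each member that reached 10 CPM in both replicates of a group. Other genes named from the lists were added after their values were seen, and some genes of the lists are not reported here. RefSeq promoter windows were matched by symbol for 5 of the 7 members. Other settings were another normalization or filter, a replicate block, Rn45s left out and each pool left out in turn. Replicate pools were checked and were not copies of each other. Deviations of same-numbered pools were nearly uncorrelated across genes, which does not tell whether such pools came from the same mouse.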

Additional observations from a re-analysis of the deposited data

Results flagged for a closer look

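Mrgpre was singled out because its jugular-nodose difference went in opposite directions in the 2 selections, with every pool of the 4 groups compared on its side. Each selection compares 2 pools with 2, for which an exact permutation p cannot fall below 0.33. The difference in the capsaicin selection minus that in the Trpv1 selection was 7.91 on the log2 scale (SE 3.87, edgeR adjusted p = 0.512), which did not pass the test, and adjusted p over the alternatives lay between 0.0453 and 1. Trpv1-tdTomato-positive jugular pools had 0.0818 and 16.1 CPM and capsaicin-selected jugular pools 5.63 and 20.9 CPM, so the jugular levels overlapped between selections. The Trpv1-tdTomato-positive nodose pools had 39.1 and 47.4 CPM and the capsaicin-selected nodose pools 0.250 and 0.585 CPM. The Trpv1-tdTomato-negative nodose pools, which this difference does not use, had 4.60 and 24.8 CPM and overlapped the Trpv1-tdTomato-positive jugular pools. Selection cannot be told apart from strain, sequencing core and depth.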

How the results depend on the processing

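The log2 fold change of Mrgprd stayed positive in every jugular comparison and setting, and over both selections 13 of 14 alternatives kept the call. The number of members called rose from 0 to 1 in the Trpv1 selection with DESeq2, with only genes at 10 CPM and with all 10 pools in 1 fit. In the capsaicin selection it rose from 0 to 2 with DESeq2 and to 1 with every gene with a count, with only genes at 10 CPM and with all 10 pools in 1 fit. Over both selections it rose from 1 to 2 with DESeq2, and members past the test of the difference between selections rose from 0 to 2 (Mrgpre and Mrgpra3). Leaving out each pool in turn gave 0 to 1 members called in the capsaicin selection, 0 to 1 over both selections and 0 to 0 in Trpv1-tdTomato-positive jugular against Trpv1-tdTomato-negative nodose neurons. DESeq2 gave no finite estimate for Mrgprb5 over both selections, where the nodose pools are at 0. Where a group was left with 1 pool, that pool was assumed to vary like the others.

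The replicate numbers name pools only: deviations of same-numbered pools correlated at -0.00761 to 0.0157 across genes. With the replicate block the members called fell from 1 to 0 in Trpv1-tdTomato-positive jugular against Trpv1-tdTomato-negative nodose neurons, and 3 of 14 non-peptidergic genes in place of 6 were called over both selections, an alternative chosen after seeing the data. No other count of members changed with the block.

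Directions reversed only for members that were not called. Leaving out each pool in turn, the log2 fold change of Mrgpre over both selections ranged from -1.0 to 3.81, and it was -0.99 and -1.0 without the first or second capsaicin-selected nodose pool. Against Trpv1-tdTomato-negative nodose neurons Mrgpre ranged from -7.39 to 0.79 and Mrgpra3 from -0.19 to 1.07. Mrgpre was 0.18 there without the first jugular and 0.79 without the second nodose pool, and Mrgpra3 was -0.19 without the first jugular pool. Between nodose classes Mrgpra3 ranged from -7.69 to 0.13, the latter without the first positive pool. Of 30 levels under other scalings, 25 moved by less than 1 SD. Unnormalised CPM gave 110.9 for Mrgprd in Trpv1-tdTomato-positive jugular neurons, 55.7 for Mrgpre in Trpv1-tdTomato-positive and 1.95 for Mrgpra3 in Trpv1-tdTomato-negative nodose neurons, and size factors within the comparison gave 55.4 and 1.56 CPM for the last 2. The cause of these changes was not tested.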
